A study of Mus musculus with 8 samples.

Results

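The membrane-spanning 4A (Ms4a) genes form a cluster on mouse chromosome 19 and code for small membrane proteins that pass the membrane several times. The best known member is Ms4a1, which codes for the B cell antigen CD20. The 9 members described here are the Ms4a genes Ms4a2, Ms4a4b, Ms4a4c, Ms4a4d, Ms4a6b, Ms4a6c, Ms4a6d, Ms4a7 and Ms4a8a, of 21597 genes with a symbol on the arrays. They were found by gene symbol from a list that leaves out Ms4a1 and 5 further Ms4a genes on the arrays, and are covered by 17 probes. The family was chosen from measured values of the same contrast, in which Ms4a4b was among the genes with the highest ratios, so the ratios below are given as a description, with no p-value of a member against 0, and calls of members are only counted.

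Pancreas RNA of 8 female NOD mice, each 12 weeks old, was labeled with Cy5 (red) and hybridized to 1 array per mouse. NOD mice develop autoimmune diabetes. Every array also carried the same pool of RNA from 8 age-matched NOD.B10 mice, congenic animals with another major histocompatibility haplotype that stay free of diabetes, labeled with Cy3 (green). The log2 ratio of red over green is above 0 where the NOD mouse gave more signal than the pool, and a ratio of 1 is a 2-fold difference. The dyes were never exchanged, so a dye effect at 1 probe and a strain difference cannot be told apart, and the pool gives no spread between NOD.B10 mice. In whole pancreas, fewer cells of a type and less RNA per cell cannot be told apart either.

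Ms4a proteins are best known from blood cells. Ms4a4b and Ms4a6b are T cell genes, and both proteins have been linked to costimulation of T cells. Ms4a6c, Ms4a6d and Ms4a7 are genes of monocytes and macrophages. Ms4a2 codes for the beta chain of the high affinity IgE receptor of mast cells and basophils. Below, Ms4a4b, Ms4a4c and Ms4a6b are called the lymphoid members and Ms4a6c, Ms4a6d and Ms4a7 the myeloid members, a grouping taken from textbook knowledge, in which Ms4a4c is the least certain because myeloid cells use it too.

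Close copies in the cluster share long stretches of coding sequence, and these are shown because a probe of 60 bases lying in one would read both genes. Among the 36 pairs of members, 6 pairs had a window of 60 bases with at least 48 identical bases in the annotated GRCm38 transcripts, and the median over all pairs was 38. Ms4a4b and Ms4a4c were identical over 127 coding bases (bases 321 to 447 from the start codon in both), and Ms4a6b and Ms4a6d over 81 coding bases (bases 100 to 180 in both). In these first 2 sequences, capitals mark the bases on either side of an exon junction, 5/6 in Ms4a4b and 2/3 in Ms4a6b. Ms4a6b and Ms4a6c share 96 identical bases over their whole transcripts, untranslated parts included, and within coding sequence their closest window differs at 1 base. The closest window of Ms4a4b and Ms4a4d differs at 3 bases. In these pairs, capitals mark the differing bases.
Ms4a4b and Ms4a4c: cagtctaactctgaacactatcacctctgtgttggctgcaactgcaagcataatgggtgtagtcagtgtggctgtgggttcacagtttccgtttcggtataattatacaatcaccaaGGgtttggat
Ms4a6b and Ms4a6d: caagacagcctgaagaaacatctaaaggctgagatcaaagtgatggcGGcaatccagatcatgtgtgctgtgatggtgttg
Ms4a6b: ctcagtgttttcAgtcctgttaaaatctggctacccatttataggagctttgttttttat
Ms4a6c: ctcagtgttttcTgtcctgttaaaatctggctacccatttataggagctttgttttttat
Ms4a4b: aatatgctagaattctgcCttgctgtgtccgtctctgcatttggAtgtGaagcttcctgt
Ms4a4d: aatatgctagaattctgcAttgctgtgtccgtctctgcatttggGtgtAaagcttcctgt
These are reference sequences on chromosome 19 of GRCm38, with Ms4a4b at chr19:11443553-11467055, Ms4a4c at chr19:11404770-11427246, Ms4a6b at chr19:11516512-11531256 and Ms4a4d at chr19:11536801-11558467, all on the plus strand. They were not read from NOD mice.

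The highest mean ratio in the family belonged to a single probe of Ms4a4b. At the probe in exon 7 the log2 ratio was 2.47, 3.96, 2.89, 3.00, 0.72, 3.12, 2.37 and 2.27 in mice 1 to 8. All 8 mice were above the pool, mouse 2 was highest and mouse 5 lowest. The mean was 2.60 ± 0.93 (SD, n = 8), or 6.06-fold. The red signal at this probe ran from 37.8 to 423 and was well above background on 6 of 8 arrays. The green signal of the pool ran from 22.9 to 45.4 and was well above background on 5 arrays, so the ratio was taken against a pool signal near the detection limit.

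The other Ms4a4b probes gave smaller ratios in the same RNA. At the probe across exons 4 and 5 the log2 ratio was -0.10, 2.67, 1.52, 2.27, 0.00, 0.92, 1.73 and 0.74 in mice 1 to 8. Mice 2 and 4 were high and had red well above background. In mice 1 and 5 red was a stand-in value, so their ratios near 0 do not measure a level equal to the pool. The mean was 1.22 ± 1.01. The probe across exons 3 and 4 had a mean of 0.84 ± 0.65, with 6 of 8 mice above 0 and red well above background on 2 of 8 arrays, and this mean was 0.42 with median-centered signals and 0.08 after normexp and loess. The exon 2 probe had a mean of 0.72 ± 1.32, a value set mainly by mouse 6 at 3.53 and mouse 4 at 1.88, with red well above background on 0 arrays and a stand-in value on 4. A probe in intron 1 was at 0 in all 8 mice, and its red signal was replaced by the software's stand-in value on every array. Its signals mark what the arrays gave without detected RNA, with red between 12.6 and 22.8 and green between 9.23 and 13.4.

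The exon 7 probe had the highest ratio of the Ms4a4b probes in most mice. Over the 6 mice without a red stand-in value at either probe, its ratio exceeded that of the probe across exons 4 and 5 by 1.29 ± 0.57 on the log2 scale, in 6 of 6. Over 7 such mice it exceeded the probe across exons 3 and 4 by 1.56 ± 1.08, in 6 of 7. Red at both of the other probes was well above background on 2 arrays, and no difference is given against the exon 2 probe, where it was on 0. Against the probe across exons 3 and 4, the exon 7 probe was lower in green on 8 of 8 arrays, by a mean log2 difference of -1.60 ± 0.51, whereas red differed by 0.12 ± 1.34. Against the probe across exons 4 and 5 the green difference was -0.76 ± 0.25 and the red difference 0.59 ± 0.91. A brightness compared between probes also carries how well each probe binds, so only the ratios within a probe compare mice with the pool.

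**Figure D1:**
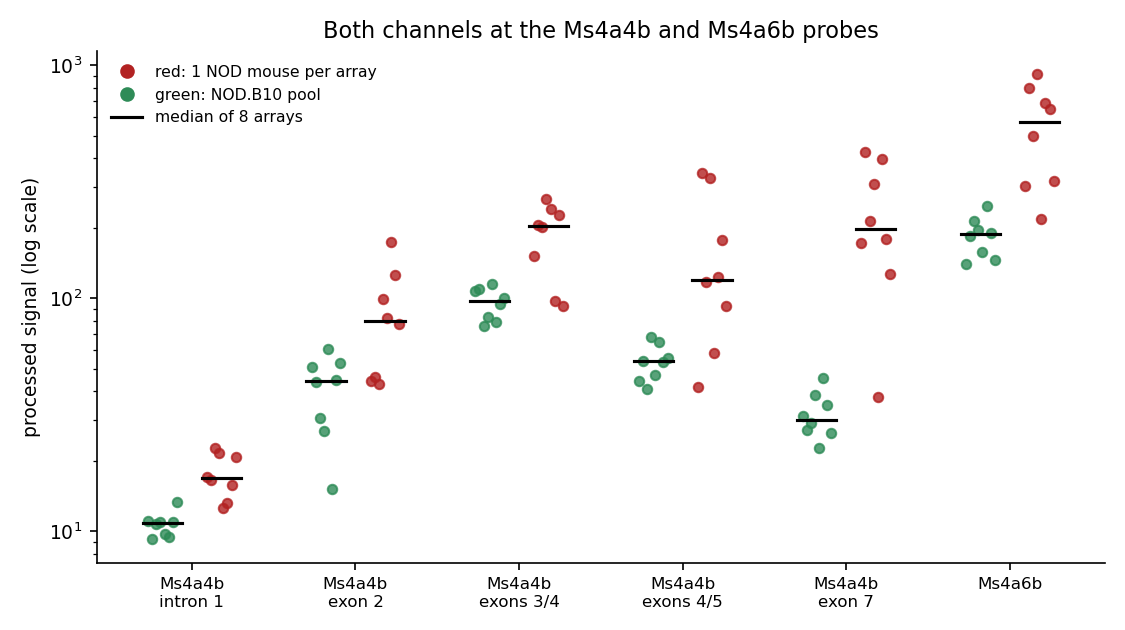
Processed signals (vertical log axis, arbitrary units) of the 5 Ms4a4b probes, in transcript order, and of the Ms4a6b probe, with 1 point per array and a black line at the median of 8 arrays. Green was lower at the Ms4a4b exon 7 probe (22.9 to 45.4) than at the probe across exons 3 and 4 (76.1 to 115), and red overlapped between these probes. Levels of different probes also carry how well each binds, and exon 7 green was well above background on 5 of 8 arrays.

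The position of each Ms4a4b probe was worked out from exon and intron lengths, since the arrays give positions on the older build mm8. The probes that span 3084 and 1360 bases on mm8 hold introns of 3024 and 1300 bases, which are the annotated lengths between exons 3 and 4 and between exons 4 and 5. The exon 7 probe, at chr19:11530184-11530243 on mm8, then starts at base 146 to 188 of exon 7, beyond the last coding base at 141, and so lies in the 3' UTR. The exon 2 probe lies in coding sequence. In all of the 43 placements that these lengths allow, the best match of the exon 7 probe to the Ms4a4c transcript was 43 to 53 of 60 bases and to Ms4a4d 26 to 42. The 3 probes in exons 2 to 5 matched Ms4a4c at 51 to 57 of 60 bases and Ms4a4d at 48 to 56. Signal from those paralogs was not tested at any of these probes, exon 7 included, and reading them as Ms4a4b is uncertain to that extent.

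Ms4a6b had the brightest probe of the family and the second highest mean ratio. The log2 ratio was 1.12, 2.11, 1.21, 2.23, 0.47, 1.47, 1.76 and 1.14 in mice 1 to 8. Every mouse was above the pool, with mice 2 and 4 highest and mouse 5 lowest, as mouse 5 also was for Ms4a4b exon 7. The mean was 1.44 ± 0.58 (SD, n = 8), or 2.71-fold. Red ran from 219 to 918 and was well above background on 7 of 8 arrays, and green ran from 140 to 250.0 and was well above background on all 8. Ms4a6b has 1 probe, whose place in the transcript was not worked out, so sharing with Ms4a6c and Ms4a6d was not tested.

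Ms4a4c, the close copy of Ms4a4b, was not detected in red. Its brightest probe had a mean log2 ratio of -0.01 ± 0.03 and 7 of 8 ratios of exactly 0, with a red stand-in value on all 8 arrays. Its rank as brightest rests on these stand-in values, with mean red of 85.2 against 35.3 at the other probe and mean green of 24.5 against 22.7. Its other probe had a mean of 0.38 ± 0.81, with mouse 5 at 1.72, mouse 4 at 1.60 and the remaining mice between -0.26 and 0.32. Red was well above background on 0 arrays at both probes, so Ms4a4c RNA was not detectable in the NOD mice at this signal and the ratios near 0 do not show that it was unchanged. The brightest probe was at 1.52 with median-centered signals and at 1.57 with ratios of the processed signals, and the gene was called higher under both. Over all probes that were tested, the log2 ratio had a median of -0.09.

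Of the myeloid members, only Ms4a7 had red well above background on several arrays, and its ratios spread widely between mice. Ms4a7, a gene of tissue macrophages, had log2 ratios of 0.18, 1.66, 0.79, 0.72, -2.11, 0.79, -1.35 and -1.31 in mice 1 to 8 at its brightest probe, across exons 6 and 7. The 4 mice on slide 1 were all above 0, and on slide 2 only mouse 6 was. The mean was -0.08 ± 1.34, and red was well above background on 4 of 8 arrays, those of mice 2, 3, 4 and 6. In mice 5, 7 and 8, the mice below 0, red was not well above background, and in mouse 5 it was a stand-in value. Their ratios therefore do not measure the size of a decrease, and the mean and spread rest partly on undetected red. Its second probe had a mean of 0.15 ± 0.64.

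Ms4a6d, another macrophage gene, was also higher on slide 1 on average. Its brightest probe had log2 ratios of 0.60, 0.55, 0.63 and 0.50 on slide 1 and -0.94, 0.18, 0.31 and -1.41 on slide 2, a mean of 0.05 ± 0.78. Red was well above background on 1 array there, and with median-centered signals the mean was 0.56. Its second probe, with red well above background on 0 arrays and a mean of 0.54 ± 0.70, was between 0.40 and 1.79 on slide 1 and was set to 0 on slide 2, where each of the 4 arrays had a stand-in value for red. The slides are the 2 glass slides that held 4 arrays each. Red was well above background in 30.1% to 35.3% of the spots on slide 1 and in 21.6% to 33.9% on slide 2, and the part of this difference in the myeloid ratios was not tested. Ms4a6c had a mean of -0.08 ± 0.14, with red never well above background and a stand-in value on 5 arrays. Its mean was 0.49 with ratios of the processed signals, 0.02 with median-centered signals and -0.02 after normexp and loess.

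The remaining members gave little signal. Ms4a2 was at exactly 0 in 5 of 8 mice and at 2.64 in mouse 2, with neither dye well above background on any array. Of its partners in the IgE receptor, Fcer1g, the gamma chain gene that other Fc receptors also use, was at 0.34 ± 0.15, above 0 in 8 of 8 mice and with red well above background on all 8 arrays. The alpha chain gene Fcer1a was at -0.13 ± 0.68, with red well above background on 0 arrays. Ms4a4d had means of -0.71 ± 0.67 at the probe across exons 4 and 5 and -0.14 ± 0.60 at the probe across exons 5 and 6, with red well above background on 0 arrays. Ms4a8a had a mean of -0.03 ± 0.08 and a red stand-in value on all 8 arrays. Its mean was 1.67 with median-centered signals, 0.46 with ratios of the processed signals and -0.02 after normexp and loess.

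**Figure D2:**
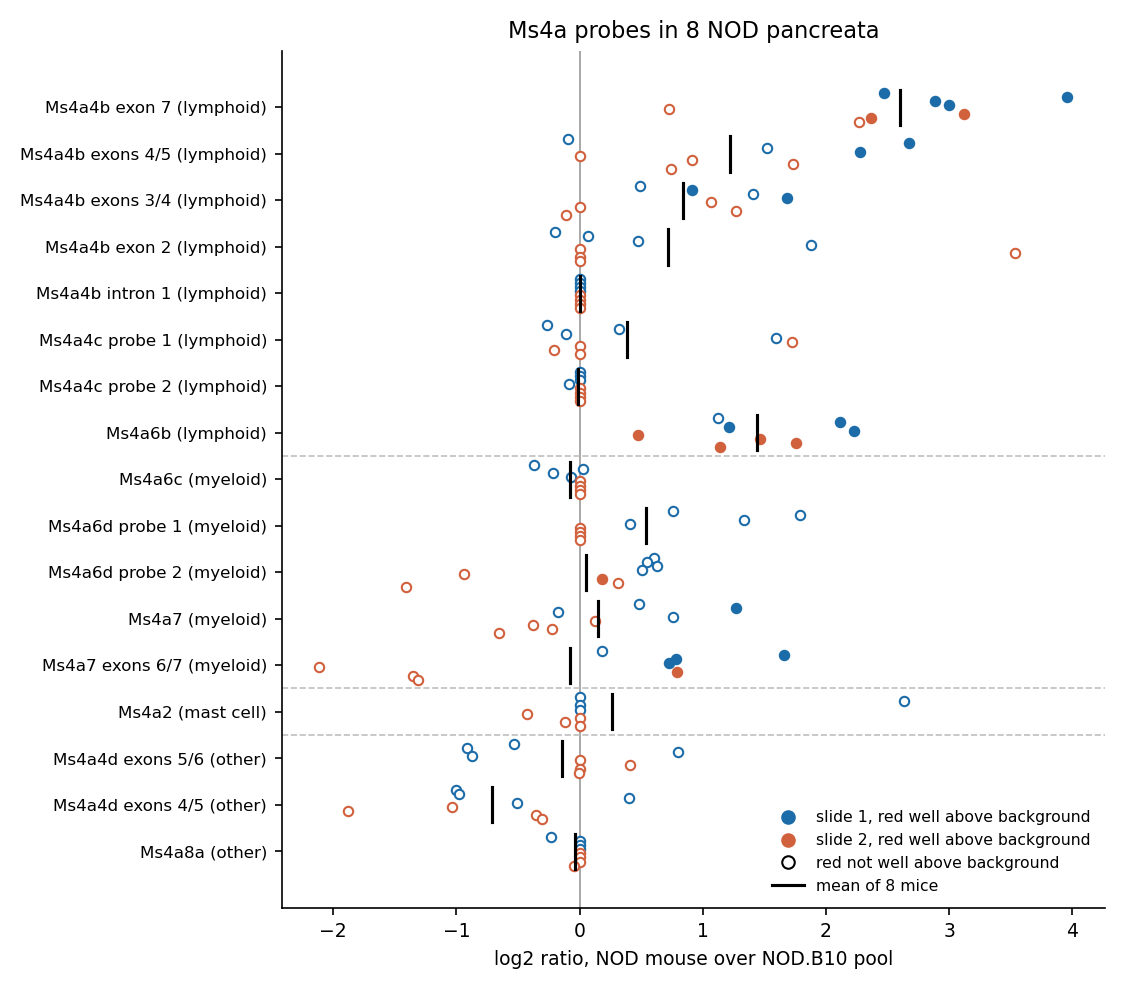
Log2 ratio of each NOD mouse over the NOD.B10 pool (horizontal axis) for the 17 probes of the 9 members, with 1 point per mouse, colored by slide, filled where red was well above background, and a black line at the mean of 8 mice. All 8 mice lie above 0 at the Ms4a4b exon 7 and Ms4a6b probes, and the means of Ms4a7 and Ms4a6d are higher on slide 1 than on slide 2.

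Of the 17 probes, 14 passed the signal filter of red at 25 or more on at least 4 arrays, and 3 did not (Ms4a2, Ms4a8a and the Ms4a4b intron probe). Of the 14, 2 were called higher, meaning a change of at least 2-fold with an adjusted p under 0.01 in limma's one-sample moderated test over all tested probes. These were Ms4a4b exon 7 and Ms4a6b. The same rule called 87 of 28105 tested probes higher, which is 0.31%, and 484 in either direction, which is 1.72%. Because the family was picked from this contrast, the member count is not read against that background. Calls over all probes depended on the scaling, with 17.98% of them higher here, 82.5% with median-centered signals, 83.4% with ratios of the processed signals and 71.6% after normexp and loess. Median-centering moved the median of all tested probes by 0.18. Ms4a4b exon 7 and Ms4a6b stayed above 0 under these 3 scalings, at 3.44, 2.60 and 0.42 for Ms4a4b exon 7 and at 1.72, 1.44 and 0.59 for Ms4a6b, in the order given. After normexp and loess neither was called.

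By the mean of 3 genes each, the lymphoid group lay above the myeloid group in each mouse, though not every lymphoid gene lay above every myeloid gene. The mean of the 3 lymphoid genes, each by its brightest probe, was 0.76 ± 0.33, and that of the 3 myeloid genes -0.04 ± 0.65. The difference was 0.79 ± 0.54, from 0.17 to 1.53, and was above 0 in 8 of 8 mice. Within slides it was 0.51 ± 0.27 on slide 1 and 1.08 ± 0.62 on slide 2. Ms4a4b enters here with its probe across exons 3 and 4, the brightest, not with exon 7. Ms4a4c and Ms4a6c enter with red never well above background, and Ms4a4c enters near 0 through stand-in values. The myeloid means below 0, in mice 5, 7 and 8 on slide 2, rest on Ms4a7 and Ms4a6d with red not well above background in these mice. The larger difference on slide 2 therefore rests partly on undetected red. After normexp and loess the difference was 0.17. No test was run, since the members were chosen with these ratios known.

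**Figure D3:**
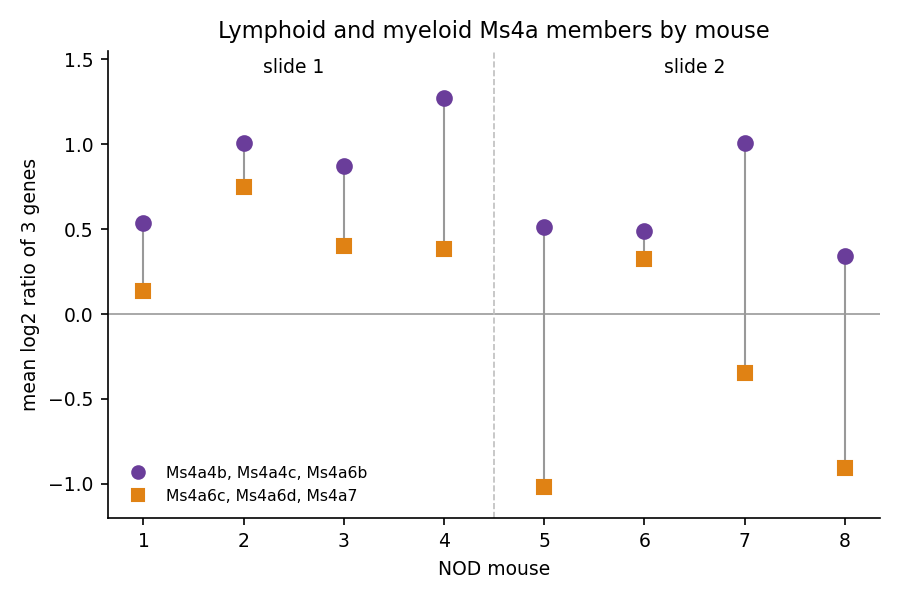
Mean log2 ratio of 3 lymphoid (circles) and 3 myeloid (squares) Ms4a genes in each NOD mouse, with a line joining both values of a mouse. Circles lie above squares in all 8 mice, and 3 of the 4 mice on slide 2 have myeloid means below 0. In these 3 mice red was not well above background at any of the myeloid probes used.

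Ms4a1, the B cell gene set apart from these members, had means of 1.01 ± 1.51 and 0.79 ± 0.64 at its 2 probes, and neither was called. The 5 other Ms4a genes on the arrays (Ms4a3, Ms4a5, Ms4a10, Ms4a12 and Ms4a13) had means from -0.53 to 0.19, and red was well above background on at most 1 array at any of them.

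Genes that lie around the cluster were read by their mm8 positions. The Ms4a probes ran from chr19:11031117-11696669, and 41 other genes had a probe inside this stretch or within 500 kb of it. Of these, 34 were tested, 18 had a mean ratio above 0 (34.5% of all tested probes did), 0 were called higher and 1, Vwce, was called lower, by limma, at a mean of -1.09, though its red was well above background on 0 arrays. The median of the 34 was 0.03. The T cell surface genes Cd5 and Cd6 lie on this flank, with means of 1.32 ± 0.78 and 0.41 ± 0.50. AW112010, a transcript of activated immune cells that lies inside the cluster, had 0.78 ± 0.65 with red well above background on all 8 arrays.

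Marker genes of leukocytes give the setting for these ratios. Genes of the acinar cells, which make up most of the pancreas, had red well above background on at least 4 arrays for all 11 genes of the list found on the array, with a median log2 ratio of 0.06. Of 16 T cell genes, 12 had a mean above 0 with a median of 0.30, led by Lck (2.30 ± 1.35) and Cd3d (2.07 ± 1.14), and 0 were called. Of 16 macrophage and monocyte genes, 13 were above 0 with a median of 0.25, led by the complement gene C1qb (0.86 ± 0.31) and Mpeg1 (0.80 ± 0.51), with Cd163 lowest at -0.25 ± 1.05, and 0 were called. Red was never well above background for 10 of 12 natural killer and cytotoxic, 8 of 12 B cell and 10 of 12 mast cell genes, so the signs in these 3 lists rest largely on undetected red. Of 9 tested natural killer and cytotoxic genes 7 were above 0, and 1, the T-box factor gene Tbx21 at 1.83 ± 0.34, was called higher. Of 12 B cell genes 6 were above 0, with a median of 0.06, and of 11 tested mast cell genes 1 was. The dendritic cell list had 5 of 6 above 0, the plasma cell list 2 of 3 and the interferon list 9 of 16.

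Whether Ms4a ratios moved with leukocyte markers was examined across the 8 mice. By the rule that red be well above background on at least 4 arrays at the brightest probe, Ms4a6b and Ms4a7 qualified, as did lists with at least 3 such genes, which gave 10 pairs. This rule reads only the NOD channel, so it favors genes that are high in NOD mice. Mean scores were 0.94 for interferon, 0.65 for T cell and 0.36 for macrophage genes, against list medians of 0.02, 0.30 and 0.25. The p-values below hold only for genes picked this way. Ms4a7 enters in mice 1, 5, 7 and 8 with red not well above background. Under the main values 3 pairs passed an adjusted p of 0.05, and these calls did not hold in several alternatives below. Ms4a6b rose with the macrophage and monocyte score (12 genes), with Pearson's r = 0.84 (exact permutation p = 0.0093, adjusted p = 0.046) and Spearman's rho = 0.88 (exact permutation p = 0.0072, adjusted p = 0.036). It also rose with the interferon score, with r = 0.79 (exact permutation p = 0.015, adjusted p = 0.049) and rho = 0.90 (exact permutation p = 0.0046, adjusted p = 0.036). Ms4a7 rose with the interferon score, with r = 0.84 (exact permutation p = 0.0087, adjusted p = 0.046) and rho = 0.79 (exact permutation p = 0.028, adjusted p = 0.092). All tests were two-sided and adjusted over the 10 pairs. Without the 2 mice farthest from the median score the 3 values of r were 0.85, 0.69 and 0.61, and centered within slides 0.81, 0.74 and 0.75. Centered within slides, none of these 3 pairs passed (exact permutation, adjusted p = 0.067, 0.087 and 0.067). After normexp and loess they had r = 0.60, 0.80 and 0.67 and none passed either (exact permutation, adjusted p = 0.20, 0.12 and 0.20). With median-centered signals they were 0.19, 0.0047 and 0.81, and no pair then passed. No pair passed either when any one of mice 1 to 6 was left out.

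The T cell score, from 7 genes, did not pass for either gene under the main values. For Ms4a6b r was 0.66 (exact permutation p = 0.076, adjusted p = 0.11) with rho = 0.71 (exact permutation p = 0.058, adjusted p = 0.12), and for Ms4a7 r was 0.77 (exact permutation p = 0.031, adjusted p = 0.067) with rho = 0.76 (exact permutation p = 0.037, adjusted p = 0.092). Without the 2 farthest mice these values of r were 0.65 and 0.66, and centered within slides 0.61 and 0.84. Centered within slides, Ms4a7 passed and Ms4a6b did not (exact permutation, adjusted p = 0.044 and 0.15). The other 5 pairs had adjusted p from 0.067 to 0.50 for r. Of these, Ms4a6b with the plasma cell score passed centered within slides (r = 0.83, exact permutation, adjusted p = 0.031). It also passed after normexp and loess (r = 0.90, exact permutation, adjusted p = 0.032). Without the 2 farthest mice its r was 0.14. The difference between the T cell and macrophage relations was not tested. The interferon score rests on 5 detected genes, with Cxcl9, Igtp and Gbp2 the highest of them, while the list as a whole had a median of 0.02.

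The Ms4a4b exon 7 probe was added after its values were seen, so its relations are a description with no p-value. With the interferon score it had r = 0.82 and rho = 0.90 over the 8 mice. Without the 2 farthest mice r was 0.70, and centered within slides it was 0.74. Against the T cell score r was 0.75 (0.57 without the 2 farthest mice), against the macrophage and monocyte score 0.77 (0.67), against the plasma cell score 0.69 (-0.22) and against the acinar score -0.39 (-0.10). Among the members themselves, Ms4a4b exon 7 and Ms4a7 had r = 0.90 and rho = 0.95, with r = 0.89 without the 2 farthest mice and 0.88 centered within slides. The T cell genes Ms4a4b and Ms4a6b had r = 0.81, which was 0.39 without the 2 farthest mice, and Ms4a6b and Ms4a7 had r = 0.64, which was then 0.35.

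**Figure D4:**
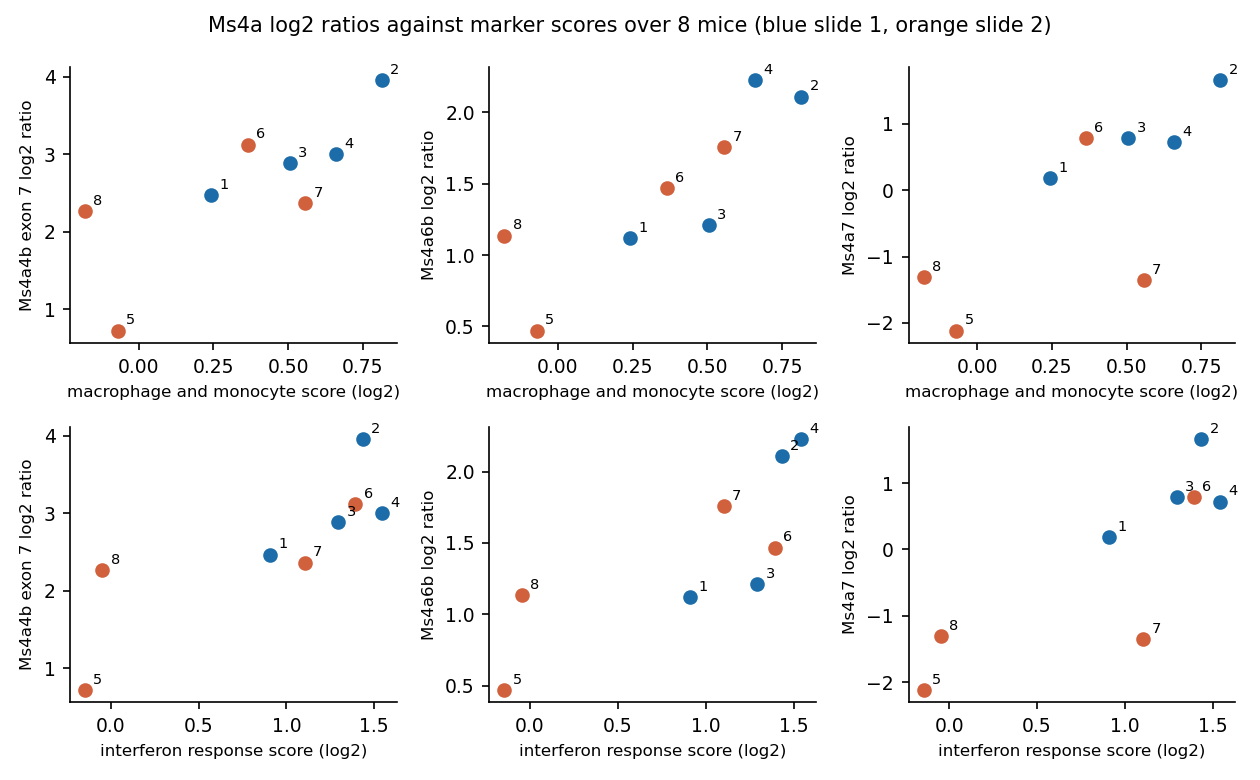
Log2 ratio of Ms4a4b exon 7, Ms4a6b and Ms4a7 (vertical axes) against the mean log2 ratio of macrophage and monocyte genes (top row) and interferon response genes (bottom row), with 1 numbered point per mouse in the color of its slide. Mice 5 and 8 have the 2 lowest scores in both rows, and mouse 5 has the lowest ratio of all 3 genes.

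The number of spots that red lit on an array moved with Ms4a7. The share of spots with red well above background had r = 0.88 with Ms4a7 (exact permutation p = 0.0049, adjusted over 3 pairs p = 0.015, rho = 0.88, exact permutation p = 0.0072, adjusted p = 0.011). For Ms4a4b exon 7 r was 0.66 and rho was 0.93, and for Ms4a6b r was 0.50 (exact permutation p = 0.21, adjusted p = 0.21) and rho 0.55 (exact permutation p = 0.17, adjusted p = 0.17). Without the 2 mice farthest from the median share the 3 values of r were 0.95, 0.97 and 0.87, and centered within slides they were 0.78, 0.48 and 0.32. The interferon score had r = 0.81 with that share and the macrophage score 0.75. The part of red detection in the relations to the scores was not tested.

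The genes whose ratios were most like those of the members over the 8 mice are given as a description, among 9906 probes with red well above background on at least 6 arrays. For Ms4a4b exon 7 they were Ctss (r = 0.95), which codes for the protease cathepsin S of antigen-presenting cells, Cops8 (0.95), Iigp2 (0.94), an interferon-inducible GTPase gene, Csf2ra (0.94) and Fcgr1 (0.94), the high affinity IgG receptor gene. Of these, Ctss had a mean ratio of 1.00 ± 0.71 and Iigp2 of 1.40 ± 0.70, while Cops8 was at 0.06 ± 0.32. For Ms4a7 they were Arhgef5 (0.98), Ptpra (0.97), 4930535B03Rik (0.97), AU024582 (0.96) and 9530029O12Rik (0.96), with mean ratios between -0.14 and 0.39. For Ms4a6b, added after its values were seen, they were Plekho1 (0.96), LOC665500 (0.95), described on the array as similar to a T cell receptor beta constant region, Lilrb3 (0.95), Ctsh (0.95) and Bach1 (0.95). All these values share an array with the member, and 1.71%, 3.00% and 1.24% of the probes exceeded r = 0.8 with Ms4a4b, Ms4a7 and Ms4a6b.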

How the data were processed

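RNA from the pancreata of 8 NOD mice was compared with 1 NOD.B10 pool on two-color arrays, 1 array per mouse. Array scans were quantified by the authors in Agilent Feature Extraction, release 10.7.3.1. A log10 ratio (red divided by green) is deposited for every spot. The deposited intensity values of either dye include the processed signal, made by subtracting background and normalizing the dyes, and signals from earlier steps. Dim signals were replaced by stand-in values, and a ratio then often reads 0. Per the file headers, positions are on mm8.

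From these values, log10 ratios were converted to log2, and probes with a symbol and a red signal of at least 25 on at least 4 arrays were tested with limma 3.58.1 (R 4.3.3) and Benjamini-Hochberg adjustment. The brightest probe stands for a gene where only 1 is used. Tables were made in Python 3.11.15 (pandas 2.3.3), exact permutation tests over all pairings in numpy 2.4.6, and plots in matplotlib 3.10.9. Sequences and gene models are GENCODE annotations of GRCm38, and no position was converted. The fit was also run on simulated ratios with independent normal noise, which lack the stand-in values of these arrays. Array precision is limited by the 8 mice and by red signal near background, well above it in 21.6% to 35.3% of spots. Nothing states whether the mice shared litters or cages, and p-values measure the spread between these arrays.

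Members, gene groups and marker lists were chosen with earlier results of these data known. Genes named are all members with every probe, other Ms4a genes, the 5 genes most like Ms4a4b and like the brightest myeloid member, leading and lowest marker genes, and chromosome 19 neighbors. Alternatives were the plain statistic, other filters, scalings and thresholds, slide as a covariate, other probes and each mouse left out.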

Additional observations from a re-analysis of the deposited data

Results flagged for a closer look

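In 3 of the 16 member probes whose ratios varied, 1 mouse stood apart from the other 7 by more than a range test for 8 samples allows at the 95% level. Chance flags about 1 group in 20 where values vary freely, but here 5 to 7 of the 8 ratios are exactly 0, so that rate does not hold. Ms4a2 was at 2.64 in mouse 2, with the next mouse at 0, and neither dye was well above background there. Ms4a4c was at -0.087 in mouse 4 at its brightest probe, with the other 7 mice at 0. Ms4a8a was at -0.23 in mouse 1, with the next mouse at -0.05. All 3 probes had red well above background on 0 arrays.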

How the results depend on the processing

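No paired analysis was possible because the arrays form 1 group and the numbers only name mice. Calls over all probes, 484 as reported, were 7248 with median-centered signals, 4160 with ratios of processed signals, 67 after normexp and loess, 308 with the plain statistic, 133 with red well above background on at least 4 arrays, 919 at an adjusted p of 0.05, 1109 at 1.5-fold, and 221 to 349 with 1 mouse left out. Called member probes, 2 as reported, were 6, 4 and 0 under the first 3 of these and 1 to 2 with 1 mouse left out. Without mouse 3, Ms4a6b was no longer called, at a mean of 1.47. The added member calls were 2 further Ms4a4c probes, 1 further Ms4a4b probe and 1 Ms4a6d probe with median-centered signals. The lymphoid minus myeloid difference fell to 0.17 after normexp and loess, lay between 0.69 and 0.88 with 1 mouse left out, and was 1.17 with Ms4a4c among the myeloid genes. Of the 10 relations to marker scores, 3 passed as reported, 0 with median-centered signals, 1 after normexp and loess, 2 centered within slides, and 0 to 2 with 1 mouse left out. The pairs that passed after normexp and loess (Ms4a6b with the plasma cell score) and within slides (that pair, and Ms4a7 with the T cell score) were none of the 3 reported. Leaving out any of mice 1 to 6 gave 0. Of 128 other values of single members, 116 moved by less than the spread between mice and 12 by more. Causes were not tested. Signal limits Ms4a2, Ms4a4c, Ms4a4d, Ms4a6c and Ms4a8a, where red never rose well above background.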
